A study of Mus musculus with 30 samples.

Results

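The late fracture callus of diet-induced obese (DIO) mice was compared with the early callus of DIO mice. Set against each other were 3 libraries of day 21 (d21) and 3 libraries of day 3 (d3). They are 6 of the 30 libraries of the series and were chosen by their day label. All mice were male C57BL/6J on a high-fat diet, aged 20 weeks at surgery, with an open osteotomy of the right tibia held by an intramedullary nail. Each library holds poly(A) RNA of 1 callus, freed of soft tissue and taken so as to avoid intact bone, and the 2 days are 3 different mice each. The d21 mice were older at harvest and longer on the diet, which cannot be told apart from healing time. The study followed lean and DIO mice over the days after fracture to compare how their calli heal. It also reports lean calli of d21, but these are not among the 30 libraries, so nothing below is a difference between diets.

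A fracture first fills with clot and inflammatory tissue, in which granulocytes, macrophages and fibroblasts lay down and rework a provisional matrix. Cartilage then bridges the gap and is replaced by woven bone, which osteoclasts reshape around cavities that fill with blood-forming marrow. In marrow, stromal cells secrete factors that hold stem cells and feed the red cell, granulocyte and B cell lines.

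Between 15597137 and 22743115 reads were counted on genes in the 6 libraries (median 17149199), and 17870 to 18659 genes had at least 3 counts. Expression is given as CPM, which are read counts scaled to library size with TMM factors, mouse by mouse in the order of their numbers. Changes are log2 fold changes of d21 over d3 ± SE. Every adjusted p is the Benjamini-Hochberg value of edgeR's two-sided quasi-likelihood test over 16995 genes, with 0.05 as the threshold. The model was fitted on the 18 DIO libraries of all 6 days. The SE is the absolute change divided by the square root of the test's F statistic, so it restates the test and is no separate measure of spread. Of the 16995 genes, 3989 rose (23.5%) and 3709 fell (21.8%), 45.3% together, and the median change over all genes was 0.03. When a change of over 1.5-fold was tested, 2039 rose and 1763 fell. The values of 9348 genes (55%) did not overlap between the days. The first principal component of the 18 libraries held 47.6% of the variance, with scores of -50.3 to -36.6 on d3 and 82.4 to 128 on d21. The lowest d21 score was that of mouse 2, whose muscle genes also stood apart. The summed expression of 43 adult skeletal muscle genes was 40280, 23280 and 32570 CPM on d3 and 1428, 28570 and 6042 CPM on d21, so that the d21 mice differed among themselves more than any d3 mice did. Without d21 mouse 2, 3932 genes rose and 3989 fell. The part of muscle in the other results was not tested, and list counts of 2 or more that moved by over 1.5 times without a mouse are given at each list, while counts of 0 or 1 moved by at most 1. CPM are shares of a library, so in whole tissue a lower level can be fewer cells of a type, less RNA in each or more RNA from other cells. A higher level can be the reverse of each. These cannot be told apart.

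Members of 31 gene lists were read against these shares, as plotted for every gene of every list. The highest medians were those of red cell, B cell and T and NK cell genes, and the lowest that of muscle regeneration genes.

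**Figure D1:**
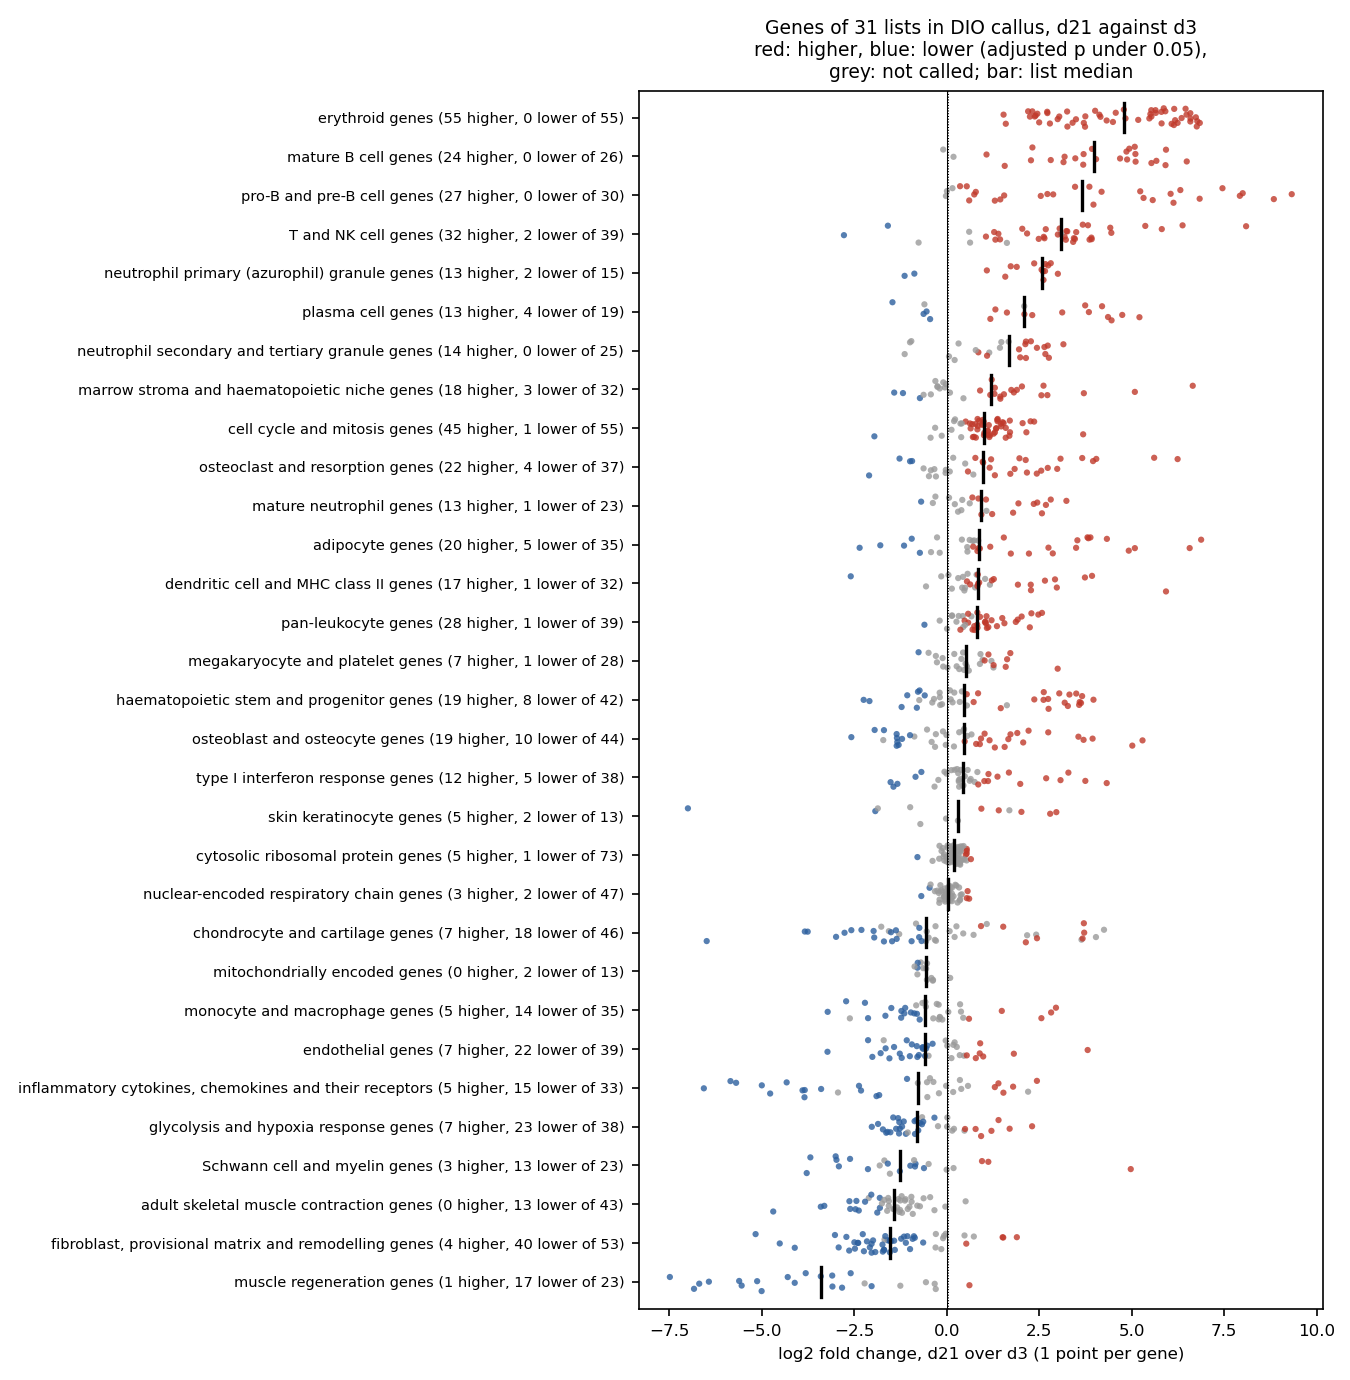
Log2 fold change of d21 over d3 in DIO callus (x axis) for each tested gene of 31 lists (y axis), with higher genes in red, lower genes in blue, genes not past an adjusted p of 0.05 in grey and the list median as a bar. The erythroid median lay at 4.79 and the muscle regeneration median at -3.41, against 0.03 for all genes (dotted line).

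Red cell genes rose as a block. Of 56 listed erythroid genes 55 passed the filter on low counts, and all 55 rose on d21, with a median of 4.79. Hbb-bs, an adult beta-globin, stood at 409, 470.3 and 449 CPM on d3 and 25430, 14890 and 18880 CPM on d21, a change of 5.48 ± 0.72, adjusted p = 1.47e-05. The d3 mice lay close together, and every d21 mouse lay far above them. Hba-a1, an adult alpha-globin, stood at 148, 162 and 144 CPM on d3 and 3128, 4144 and 3486 CPM on d21 (4.57 ± 0.75, adjusted p = 1.10e-04). Hba-a2 and Hbb-bt rose as well (5.18 and 5.64), but each pair of globin genes shares long near-identical stretches, and reads may be split between its copies.

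The enzymes and membrane proteins of red cell precursors showed the same direction. Alas2, the first enzyme of haem synthesis in red cells, stood at 28.8, 31.6 and 29.1 CPM on d3 and 1423, 1469 and 1256 CPM on d21 (5.53 ± 0.75, adjusted p = 2.08e-05). Fech, the enzyme that puts iron into haem, rose 5.46-fold, from 76.8 ± 5.66 to 419.7 ± 13 CPM (mean ± SD, n = 3; adjusted p = 1.28e-06). Tfrc, the receptor that takes up iron-bound transferrin, rose 11.3-fold to 560.2 ± 154 CPM. In these genes every d21 mouse lay above all d3 mice. Rhag, of the Rh complex of the membrane, Car1, a carbonic anhydrase of red cells, Slc38a5, a glutamine transporter, and Hemgn, a nuclear protein of erythroid cells, were among the 12 largest increases of genes with at least 10 CPM on d21 and no overlap between the days, at 6.59, 6.76, 6.84 and 6.73. Klf1, the transcription factor that drives globin genes, rose from 1.09, 2.31 and 2.07 to 106, 76.6 and 141 CPM (5.87 ± 0.96, adjusted p = 1.16e-04).

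GATA factors are known regulators of red cell genes, and the letters AGATAA (or their reverse complement TTATCT) were searched on both strands in the 250 bases before each RefSeq transcription start (GRCm38.p6). They stood in 11 of 40 erythroid genes with a promoter entry (27.5%), against 7.61% of the tested genes and 11.4% of all genes with an entry. The letters CCNCNCCC, as bound by KLF factors, stood in 60% of the erythroid and 67.1% of the tested genes. The EBF motif of B cell genes stood in 2 of 40 erythroid genes (5%), against 1.19% of tested genes. It stood in 1 of 24 pro-B and pre-B, 2 of 31 adult muscle and 0 of 16 muscle regeneration genes. TGTGGT, bound by RUNX factors, stood in 20% of erythroid and 13.5% of tested genes. Its share was 20.8% of pro-B and pre-B, 19.4% of adult muscle and 31.2% of muscle regeneration genes. The stretches around the match are shown for Alas2 and Hbb-bs, as 2 of the named erythroid genes that hold one, with the match in capitals. They were cut where an annotated exon of the same gene begins and lie at chrX:150547167-150547374, plus strand, and at chr7:103828097-103828178, minus strand.
Alas2: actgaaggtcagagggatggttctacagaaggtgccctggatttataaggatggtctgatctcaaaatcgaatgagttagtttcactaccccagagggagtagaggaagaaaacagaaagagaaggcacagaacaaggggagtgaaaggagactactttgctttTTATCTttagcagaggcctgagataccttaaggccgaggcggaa
Hbb-bs: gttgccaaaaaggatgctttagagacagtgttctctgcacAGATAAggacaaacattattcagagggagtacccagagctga
In Alas2 the match began 86 bases before the start and in Hbb-bs 210 bases before it. A match is a run of letters and shows no binding.

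B cell genes included the largest increases of genes at that level. Of 30 tested pro-B and pre-B cell genes 27 rose and 0 fell (median 3.66), and of 26 mature B cell genes 24 rose and 0 fell (median 3.98). Igll1 and Vpreb1 encode the surrogate light chain that pre-B cells carry before they have made a light chain of their own. Igll1 (chr16:16860671-16863985, minus strand; GRCm38, GENCODE M21) stood at 0, 0.165 and 0.304 CPM on d3 and 68.7, 71 and 86.4 CPM on d21 (8.84 ± 0.75, adjusted p = 3.69e-07), the largest rise of genes with at least 10 CPM. Vpreb1, which lies near it (chr16:16868403-16870843, minus strand), stood at 0.121, 0.247 and 0.304 CPM on d3 and 41.5, 34.3 and 47 CPM on d21 (7.45 ± 0.63, adjusted p = 3.69e-07). Both were under 1 CPM in every d3 mouse and far above it in every d21 mouse. Most of Vpreb1 has a near-identical copy in Vpreb2, which had no count on d3 and reached 4.68, 4.18 and 5.26 CPM on d21. Dntt, the polymerase that adds bases at heavy chain joints, stood at 0.543, 0.0412 and 0.121 CPM on d3 and 48.7, 38 and 83.8 CPM on d21 (8.0 ± 0.89, adjusted p = 3.41e-06). Rag1, a subunit of the recombinase of antigen receptor genes, reached 13.5, 11.9 and 43.2 CPM from 0.302, 0.165 and 0.121 CPM (6.84 ± 0.87, adjusted p = 1.16e-05). For Rag1 the d21 mice spread widely, with mouse 3 the highest. Vpreb3 and Bfsp2 were also among the 12 largest increases of such genes (7.92 and 7.0).

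The receptor complex and later stages rose too. Cd79a, a signalling chain of the B cell receptor, stood at 1.63, 1.52 and 1.46 CPM on d3 and 83.2, 101 and 123 CPM on d21 (6.05 ± 0.49, adjusted p = 3.23e-07), and Cd79b changed by 5.32. Pax5, the factor that fixes B cell identity, rose from 0.877 ± 0.655 to 41.1 ± 8.15 CPM (5.57 ± 0.71, adjusted p = 1.21e-05). Ighd, the constant region of IgD of mature B cells, stood at 3.02, 1.56 and 1.4 CPM on d3 and 116, 66 and 120.0 CPM on d21 (5.67 ± 0.48, adjusted p = 3.69e-07). Ms4a1, which encodes CD20, and Cr2, a complement receptor, changed by 5.11 and 5.91, and Pou2af1, a coactivator of immunoglobulin genes, by 6.49 with the smallest adjusted p of the list (2.33e-09). Of 19 plasma cell genes 13 rose (68.4%) and 4 fell (21.1%, near the 21.8% of all genes). The median was 2.1, and 1.48 without d21 mouse 3. The count of falls was 1 without d3 mouse 2, and 2 without d3 mouse 3 or without d21 mouse 1. Jchain, which joins IgA and IgM units, stood at 0.483, 8.4 and 6.32 CPM on d3 and 62.3, 65 and 157 CPM on d21 (4.2 ± 0.74, adjusted p = 2.32e-04), and Igha, the IgA constant region, at 3.14, 8.52 and 17.7 CPM on d3 and 135, 259.8 and 249 CPM on d21 (4.46 ± 0.82, adjusted p = 3.31e-04). Xbp1 and Sdc1, used by plasma cells but also by bone cells and fibroblasts, fell by 0.45 and 0.63 on the log2 scale. Both calls were lost without d3 mouse 2 or without d3 mouse 3, that of Xbp1 also without d21 mouse 2, and that of Sdc1 also without d21 mouse 1 or mouse 3.

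T and NK cell genes rose by large factors from low levels. Of 39 tested genes 32 rose and 2 fell (median 3.09). Cd3e, a chain of the T cell receptor complex, stood at 0.181, 0.247 and 0.0608 CPM on d3 and 1.79, 2 and 2.19 CPM on d21 (3.5 ± 0.77, adjusted p = 0.00139). Lck, the kinase of early T cell receptor signalling, stood at 2.41, 1.4 and 1.15 CPM on d3 and 18.9, 14.9 and 19.1 CPM on d21 (3.42 ± 0.44, adjusted p = 1.34e-05). Ccl5, a chemokine of T and NK cells, stood at 2.05, 1.69 and 1.34 CPM on d3 and 14.3, 18.5 and 14.6 CPM on d21 (3.22 ± 0.34, adjusted p = 2.08e-06). In all 3 genes the days did not overlap and the d21 mice differed little. Klrb1c (NK1.1) changed by 3.82, and Trac and Trbc2, constant regions of the T cell receptor, by 2.64 and 3.92. Trbc2 has a near-identical copy in Trbc1. Eomes, a transcription factor of NK and memory T cells, had no count in the d3 mice and 1.45, 1.89 and 2.65 CPM in the d21 mice. Thy1, which fibroblasts carry as well as T cells, went the other way, at 159, 105 and 120.2 CPM on d3 and 13.1, 28.6 and 14.3 CPM on d21 (-2.78 ± 0.26, adjusted p = 6.94e-07). Ifng, the gene of interferon gamma, had 0, 0 and 0 counts on d3 and 0, 1 and 1 counts on d21, and did not pass the filter.

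**Figure D2:**
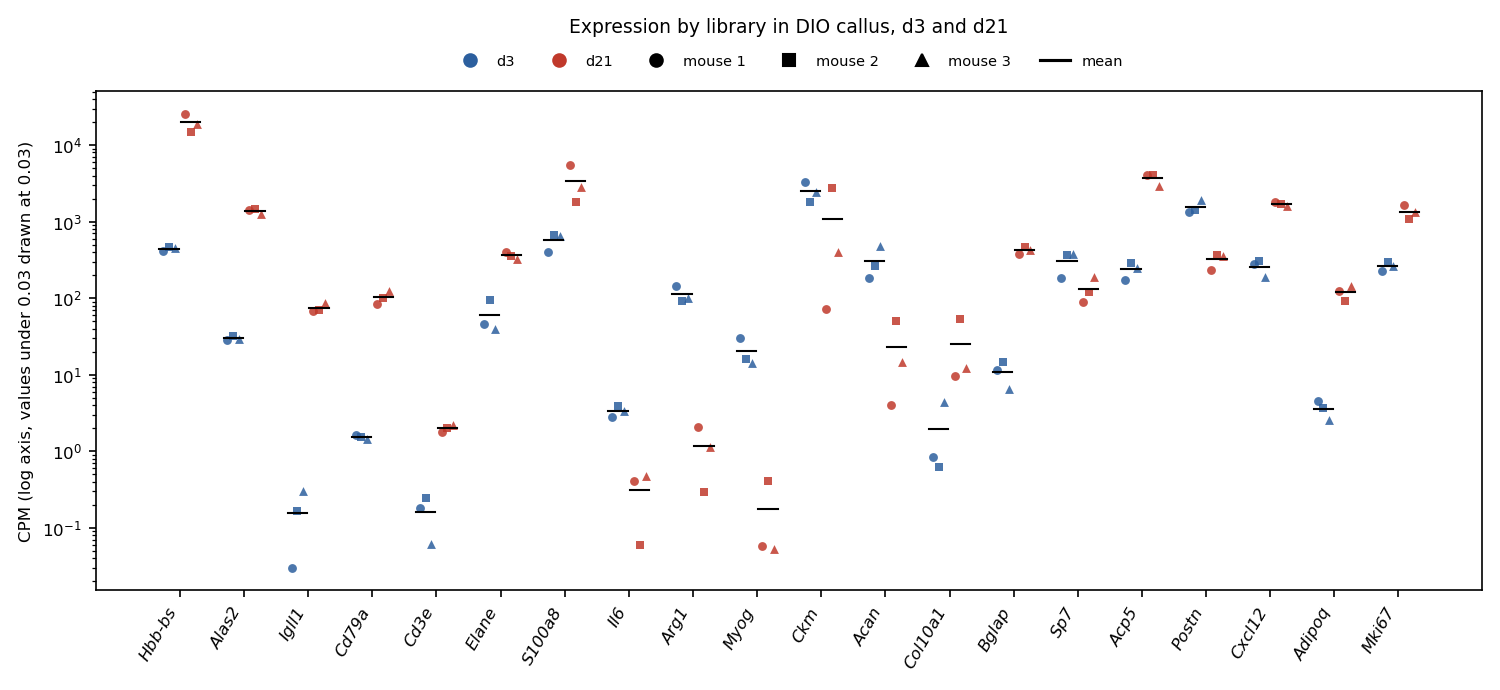
Expression (CPM, log axis, values under 0.03 drawn at 0.03) of 20 genes in the 3 d3 libraries (blue) and the 3 d21 libraries (red) of DIO callus, with 1 symbol per mouse and a bar for the mean. Hbb-bs, Alas2, Igll1, Cd79a, Cd3e and Acp5 lay higher in every d21 mouse, Il6, Arg1, Myog, Acan and Postn lower in every d21 mouse, and Ckm overlapped between the days.

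At every stage of neutrophil maturation, more genes rose than fell. Neutrophils fill their primary granules as promyelocytes in marrow, and their secondary and tertiary granules at later stages. Of 15 primary granule genes 13 rose and 2 fell (median 2.56). Mpo, myeloperoxidase, stood at 92.3, 188 and 91.5 CPM on d3 and 917, 788 and 642 CPM on d21 (2.66 ± 0.51, adjusted p = 4.53e-04), and Elane, neutrophil elastase, at 45.7, 94.2 and 39.2 CPM on d3 and 406, 360.4 and 322 CPM on d21 (2.6 ± 0.47, adjusted p = 2.94e-04). Prtn3, Ctsg and Ms4a3 of the same stage changed by 2.36, 2.74 and 2.81. The d3 mice already expressed these genes, and no d21 mouse overlapped with them. Of 25 secondary and tertiary granule genes 14 rose and 0 fell (median 1.67). Camp, a cathelicidin, stood at 202, 348 and 339 CPM on d3 and 3347, 1231 and 1449 CPM on d21 (2.76 ± 0.69, adjusted p = 0.00361). Ltf, lactoferrin, stood at 202, 387 and 349.9 CPM on d3 and 1987, 1058 and 1092 CPM on d21 (2.14 ± 0.65, adjusted p = 0.0126), and its call was lost without d3 mouse 1 or without d21 mouse 1.

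Of 23 genes of mature neutrophils 13 rose and 1 fell (median 0.94), with 8 rises without d3 mouse 3 and 8 without d21 mouse 1. S100a8, a chain of calprotectin in neutrophil cytosol, stood at 399, 663 and 643 CPM on d3 and 5521, 1791 and 2835 CPM on d21 (2.57 ± 0.61, adjusted p = 0.00241). Its level in d21 mouse 1 stood well above the other d21 mice, as it did for Camp and Ltf. Retnlg and Mxd1, expressed in mature neutrophils, changed by 3.23 and 2.35. Cxcr2, the chemokine receptor of neutrophils leaving marrow, stood at 26.7, 27 and 15.6 CPM on d3 and 35.6, 27.9 and 43.2 CPM on d21 and did not pass (0.62 ± 0.30, adjusted p = 0.0984).

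Other marrow lines were mixed. Of 42 stem and progenitor genes 19 rose (45.2%, against 23.5% of all genes) and 8 fell (19%, near the 21.8% of all genes), with a median of 0.47. Kit, the stem cell factor receptor, rose 2.75-fold, from 13.9 ± 1.16 to 38.3 ± 5.04 CPM (adjusted p = 1.92e-04), and Myb, a factor of dividing precursors, changed by 3.97. Prg2, the major basic protein of eosinophils, stood at 14.8, 56.7 and 41.6 CPM on d3 and 566, 302 and 499 CPM on d21 (3.59 ± 0.68, adjusted p = 4.01e-04), and Prss34, a protease of basophils, changed by 3.63. Cd34, Ly6a and Procr, which endothelial and stromal cells also express, fell by 0.81, 2.09 and 2.25 on the log2 scale. Of 28 megakaryocyte and platelet genes 7 rose (25%, near the 23.5% of all genes) and 1 fell, with 4 rises without d3 mouse 1. The median was 0.53, against 0.08 without d3 mouse 1 and 0.94 without d3 mouse 2. Nfe2, a factor of platelet formation also used by red cell precursors, changed by 3.0. Pf4, platelet factor 4, stood at 175, 160.4 and 147 CPM on d3 and 119.8, 74.2 and 90.2 CPM on d21 (-0.76 ± 0.25, adjusted p = 0.0199), and its call was lost without d3 mouse 1, d21 mouse 2 or d21 mouse 3. Itga2b, the platelet integrin chain, stood at 27.4, 103 and 79.8 CPM on d3 and 87.2, 78.8 and 87.5 CPM on d21, with d3 mouse 1 far below the other d3 mice (0.27 ± 0.54, adjusted p = 0.715).

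Leukocyte genes at large rose moderately. Of 39 genes shared by most leukocytes 28 rose and 1 fell (median 0.83), with 18 rises without d3 mouse 3. Ptprc, which encodes CD45, stood at 130.4, 105 and 66 CPM on d3 and 269.5, 158 and 269.5 CPM on d21 (1.21 ± 0.25, adjusted p = 9.41e-04). Coro1a, an actin regulator of leukocytes, rose 2.94-fold. Spi1 (PU.1), a factor of myeloid and B cells, stood at 139, 118 and 87.2 CPM on d3 and 83.2, 126 and 91.8 CPM on d21, with overlapping days (-0.19 ± 0.27, adjusted p = 0.587).

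Macrophage genes moved in both directions. Of 35 monocyte and macrophage genes 5 rose (14.3%) and 14 fell (40%), against 23.5% and 21.8% of all genes (median -0.58). Msr1, a scavenger receptor, stood at 83.7, 58.2 and 47 CPM on d3 and 12.9, 12 and 15.7 CPM on d21 (-2.21 ± 0.22, adjusted p = 1.46e-06). Ly6c2, of inflammatory and marrow monocytes, changed by 2.82, although part of it has a near-identical copy in Ly6c1. Slc40a1, the iron exporter of macrophages that recycle red cells, stood at 14.1, 22.4 and 21.5 CPM on d3 and 147, 126 and 177 CPM on d21 (2.95 ± 0.26, adjusted p = 5.16e-07), and Vcam1, an adhesion molecule of such macrophages and of stroma, changed by 2.56. Neither Csf1r (0.38), the CSF1 receptor, nor Adgre1 (-0.57), which encodes F4/80, nor Cd68 (-0.19) passed the threshold (adjusted p = 0.151, 0.0611 and 0.515). Of 32 antigen presentation and dendritic cell genes 17 rose and 1 fell (median 0.83). H2-Aa, an MHC class II chain, stood at 195, 185 and 100.1 CPM on d3 and 490.4, 371 and 299.5 CPM on d21 (1.27 ± 0.25, adjusted p = 6.34e-04), H2-Ob, of B cells, changed by 3.93 and Siglech, of plasmacytoid dendritic cells, by 3.73.

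More inflammatory genes fell than rose. Of 33 inflammatory cytokine, chemokine and receptor genes 15 fell and 5 rose (median -0.78), and the count of rises was 3 without d3 mouse 2 and 2 without d3 mouse 3 or d21 mouse 1. The summed expression of the list was nevertheless higher in every d21 mouse. It was 3242, 2221 and 1730 CPM on d3 and 5028, 3658 and 4102 CPM on d21. Such a sum is weighted towards the members with most reads, and the genes that rose are not described here. Arg1, the arginase of wound macrophages, stood at 145, 91.7 and 100.2 CPM on d3 and 2.08, 0.294 and 1.15 CPM on d21 (-6.57 ± 1.02, adjusted p = 6.81e-05), the second largest fall of genes with at least 10 CPM on d3 and no overlap. Il6 stood at 2.77, 3.95 and 3.4 CPM on d3 and 0.405, 0.0589 and 0.468 CPM on d21 (-3.4 ± 0.76, adjusted p = 0.00149), and Il11, of the same cytokine family, at 3.32, 6.3 and 14.9 CPM on d3 and 0.289, 0.118 and 0.052 CPM on d21 (-5.7 ± 0.77, adjusted p = 1.94e-05). In these 3 genes no d21 mouse reached the lowest d3 mouse. The neutrophil attractants Cxcl1 and Cxcl5 changed by -4.78 and -5.85, the monocyte attractants Ccl2 and Ccl7 by -3.85 and -5.0, Ptgs2 (cyclooxygenase 2) by -3.9 and Saa3, an acute-phase protein, by -3.84. Not every such gene fell. Il1b stood at 54.8, 69.3 and 31.3 CPM on d3 and 45, 18.3 and 27.2 CPM on d21 (-0.78 ± 0.51, adjusted p = 0.227), and Tnf at 5.73, 3.5 and 4.56 CPM on d3 and 3.58, 1.89 and 4.53 CPM on d21 (-0.46 ± 0.75, adjusted p = 0.652), with overlapping days. Cxcl2 stood at 4.04, 6.09 and 5.17 CPM on d3 and 17.9, 1.24 and 0.52 CPM on d21, so that d21 mouse 1 alone lay above the d3 mice (0.35 ± 1.18, adjusted p = 0.828).

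Type I interferon response genes were divided. Of 38 genes 12 rose (31.6%) and 5 fell (13.2%), against 23.5% and 21.8% of all genes (median 0.43). Without d3 mouse 1, 19 rose and 1 fell. The count of falls was 3 without d3 mouse 3 and 2 without d21 mouse 1. Rsad2 (viperin) stood at 12.9, 6.92 and 8.87 CPM on d3 and 202, 161 and 209 CPM on d21 (4.32 ± 0.47, adjusted p = 2.76e-06), Isg20, a ribonuclease that is also on the erythroid list, at 17.9, 15.7 and 15.5 CPM on d3 and 250.3, 179 and 229 CPM on d21 (3.75 ± 0.36, adjusted p = 9.79e-07) and Cmpk2, a mitochondrial kinase beside Rsad2 in the genome, changed by 3.08. Ifit1 stood at 10.4, 2.43 and 5.65 CPM on d3 and 6.88, 6.6 and 7.75 CPM on d21 (0.21 ± 0.40, adjusted p = 0.694), and the d3 mice spread more widely than the d21 mice. Irf7, the regulator of the response, changed by 0.75 (adjusted p = 0.0706).

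Most cell cycle genes rose. Of 55 cell cycle genes 45 rose and 1 fell (median 1.01). Mki67, the proliferation marker Ki-67, stood at 223, 296 and 266 CPM on d3 and 1628, 1070 and 1338 CPM on d21 (2.36 ± 0.27, adjusted p = 3.97e-06), and Top2a, a topoisomerase of dividing cells, at 147, 199 and 179 CPM on d3 and 539.9, 326 and 495 CPM on d21 (1.38 ± 0.23, adjusted p = 1.20e-04). E2f2, a factor of cell cycle entry, changed by 3.69, the largest rise of the list. Ccnd1 (cyclin D1) was the gene that fell, at 136, 186 and 150.3 CPM on d3 and 30.4, 46.9 and 43.9 CPM on d21 (-1.96 ± 0.22, adjusted p = 3.62e-06). Cdk1 changed by 0.79 (adjusted p = 0.0155), and its call was lost without d3 mouse 1 or d21 mouse 1.

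Bone-forming genes moved in both directions. Of 44 osteoblast and osteocyte genes 19 rose (43.2%, against 23.5% of all genes) and 10 fell (22.7%, near the 21.8% of all genes), with a median of 0.46. Bglap, osteocalcin of mature osteoblasts, stood at 11.4, 14.5 and 6.5 CPM on d3 and 376, 473 and 427 CPM on d21 (5.29 ± 0.37, adjusted p = 1.58e-07), and its near-identical copy Bglap2 changed by 5.02, so that reads may be split between the pair. Of the genes of osteocytes, the cells enclosed in bone, 3 are named. Sost, the Wnt antagonist sclerostin, stood at 12.7, 9.22 and 7.17 CPM on d3 and 96, 189.7 and 161 CPM on d21 (3.94 ± 0.35, adjusted p = 5.23e-07), Mepe at 37.5, 57.3 and 55.3 CPM on d3 and 608, 542 and 619 CPM on d21 (3.56 ± 0.26, adjusted p = 1.92e-07) and Dmp1 at 134, 248 and 289.5 CPM on d3 and 705, 719 and 703 CPM on d21 (1.66 ± 0.38, adjusted p = 0.002). All 3 were higher in every d21 mouse. Runx2, the factor that starts the lineage, stood at 59.2, 107 and 90.4 CPM on d3 and 67.1, 86.9 and 84.9 CPM on d21 (-0.10 ± 0.21, adjusted p = 0.723), Sp7 (osterix) at 182, 361 and 377 CPM on d3 and 89.6, 121 and 187 CPM on d21 (-1.21 ± 0.32, adjusted p = 0.00523) and Ibsp, bone sialoprotein, at 1598, 4672 and 5031 CPM on d3 and 1367, 1526 and 1522 CPM on d21 (-1.36 ± 0.40, adjusted p = 0.00982). In Ibsp and Sp7, d3 mouse 1 lay well below the other d3 mice, and for Sp7 the days overlapped.

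More osteoclast genes rose than fell. Of 37 osteoclast and resorption genes 22 rose and 4 fell (median 0.98), with 7 falls without d21 mouse 2. Acp5, the tartrate-resistant phosphatase, stood at 172, 288 and 251 CPM on d3 and 4081, 4048 and 2877 CPM on d21 (3.95 ± 0.33, adjusted p = 3.41e-07), and Ctsk, the collagen-cutting cathepsin K, at 226, 377 and 386 CPM on d3 and 3009, 2621 and 2206 CPM on d21 (2.99 ± 0.31, adjusted p = 1.69e-06). The cell fusion gene Dcstamp, the coreceptor Oscar and the calcitonin receptor Calcr changed by 3.08, 4.04 and 5.61. Car2, the carbonic anhydrase of both osteoclasts and red cells and a member of both lists, changed by 6.24. Tnfsf11 (RANKL), the osteoclast-inducing ligand, stood at 9.59, 18.3 and 21.6 CPM on d3 and 14.8, 14.8 and 7.18 CPM on d21 (-0.43 ± 0.35, adjusted p = 0.327), and its decoy receptor Tnfrsf11b at 9.77, 28.4 and 33.7 CPM on d3 and 8.78, 8.89 and 11.9 CPM on d21 (-1.28 ± 0.39, adjusted p = 0.0138). The Tnfrsf11b call was lost without d3 mouse 3, and d3 mouse 1 lay within the d21 range.

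More cartilage genes fell than rose. Of 46 chondrocyte and cartilage genes 18 fell and 7 rose (median -0.55), and the falls numbered 10 without d3 mouse 3 or without d21 mouse 1, while the rises numbered 4 without d21 mouse 2. Acan, aggrecan, stood at 184, 266 and 479 CPM on d3 and 4.04, 49.7 and 14.8 CPM on d21 (-3.76 ± 0.70, adjusted p = 3.66e-04), and Sox9, the factor of chondrocyte identity, at 23.9, 41.5 and 39.1 CPM on d3 and 1.27, 1.89 and 4.06 CPM on d21 (-3.84 ± 0.36, adjusted p = 7.18e-07). Col2a1, type II collagen, stood at 81.8, 99.1 and 409.7 CPM on d3 and 49.7, 514 and 119.6 CPM on d21 (0.21 ± 0.78, adjusted p = 0.845), with wide spread and overlap on both days. Col10a1, of hypertrophic chondrocytes, stood at 0.845, 0.618 and 4.44 CPM on d3 and 9.59, 53.7 and 12.1 CPM on d21 (3.71 ± 1.05, adjusted p = 0.00806), with d21 mouse 2 the highest, and its call was lost without that mouse. Prg4, the lubricin of joint and tendon surfaces, stood at 428, 252 and 471 CPM on d3 and 1.73, 8.07 and 3.02 CPM on d21 (-6.49 ± 0.60, adjusted p = 7.48e-07). Sox6 rose instead (2.44 ± 0.30, adjusted p = 7.78e-06), and red cell precursors use it too.

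Provisional matrix genes had the highest share of falls of the 31 lists. Of 53 fibroblast, provisional matrix and remodelling genes 40 fell and 4 rose (median -1.54). Postn, periostin, stood at 1337, 1426 and 1893 CPM on d3 and 236, 369 and 359 CPM on d21 (-2.27 ± 0.34, adjusted p = 4.85e-05), and Fn1, fibronectin, at 1617, 1920 and 1820 CPM on d3 and 625, 998 and 653 CPM on d21 (-1.23 ± 0.26, adjusted p = 0.00101). Timp1, a protease inhibitor, fell by 2.5, Tgfbi, a TGF-beta-induced matrix protein, by 2.48 and Has2, a hyaluronan synthase, by 5.17 on the log2 scale. Tnc, tenascin C, stood at 857, 1461 and 1615 CPM on d3 and 1285, 1304 and 1269 CPM on d21 and did not pass (-0.03 ± 0.28, adjusted p = 0.946). Fosl1, an AP-1 factor of wounds, stood at 15.1, 14.9 and 18.4 CPM on d3 and 0.347, 0.412 and 0.156 CPM on d21 (-5.71 ± 0.59, adjusted p = 1.86e-06), although much of it overlaps Ccdc85b on the opposite strand.

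Glycolysis and vessel genes fell in part. Of 38 glycolysis and hypoxia response genes 23 fell and 7 rose (median -0.80). Slc2a1, the GLUT1 glucose transporter, stood at 53.8, 55.1 and 62.5 CPM on d3 and 23.2, 20 and 16.4 CPM on d21 (-1.52 ± 0.14, adjusted p = 6.71e-07), and Vegfa, the main angiogenic factor, at 127, 181 and 225 CPM on d3 and 56.8, 80.6 and 93 CPM on d21 (-1.21 ± 0.24, adjusted p = 7.14e-04). Bnip3l, which clears mitochondria from maturing red cells, rose 4.95-fold. Of 39 endothelial genes 22 fell (56.4%) and 7 rose (17.9%), against 21.8% and 23.5% of all genes (median -0.59). Apln, of sprouting tip cells, stood at 52.1, 75.2 and 91.8 CPM on d3 and 7.28, 8.25 and 7.86 CPM on d21 (-3.23 ± 0.27, adjusted p = 3.41e-07), and Nos3, the endothelial nitric oxide synthase, changed by -2.01. Stab2, of sinusoids as in marrow and liver, stood at 2.47, 7.08 and 6.56 CPM on d3 and 79.5, 94.7 and 53.7 CPM on d21 (3.81 ± 0.53, adjusted p = 2.69e-05). The general markers Pecam1 and Cdh5 changed by -0.38 and -0.56 and lost their calls without d3 mouse 1 or 3 and without d21 mouse 1 or 3. Kdr, the VEGF receptor, stood at 50.9, 55.8 and 55.9 CPM on d3 and 58.7, 77.5 and 59.8 CPM on d21 (0.27 ± 0.17, adjusted p = 0.217).

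More marrow stroma and fat genes rose than fell. Of 32 marrow stroma and niche genes 18 rose (56.2%) and 3 fell (9.38%), against 23.5% and 21.8% of all genes. The median was 1.2, and 5 fell without d21 mouse 2. The genes named next all rose, while the lowest change of the list was -1.42. Cxcl12, the chemokine that holds stem cells in marrow, stood at 280.3, 305 and 188 CPM on d3 and 1815, 1707 and 1577 CPM on d21 (2.72 ± 0.21, adjusted p = 2.09e-07). Lepr, the leptin receptor that marks perivascular stroma, stood at 9.47, 25.1 and 21 CPM on d3 and 81.7, 70.9 and 75.2 CPM on d21 (2.03 ± 0.32, adjusted p = 7.42e-05), and Kitl, the stem cell factor, changed by 1.29. Gdpd2, a glycerophosphodiesterase, rose from 1.33, 2.02 and 0.668 to 149, 151 and 119.7 CPM (6.65 ± 0.50, adjusted p = 2.09e-07). Of 35 adipocyte genes 20 rose (57.1%) and 5 fell (14.3%), with a median of 0.86. The adipocyte genes named next all rose too, while the lowest change of that list was -2.36. Adipoq, adiponectin, which marrow stroma also makes, stood at 4.46, 3.62 and 2.55 CPM on d3 and 124, 93 and 146 CPM on d21 (5.08 ± 0.41, adjusted p = 3.23e-07), and Cfd, the adipokine adipsin, at 1.75, 2.47 and 1.03 CPM on d3 and 161, 166 and 185 CPM on d21 (6.57 ± 0.74, adjusted p = 3.92e-06). Plin1, which coats the lipid droplet of fat cells, stood at 4.1, 0.577 and 0.608 CPM on d3 and 11.6, 23.9 and 24.4 CPM on d21 (3.53 ± 0.76, adjusted p = 0.00121), and Pparg, the factor of fat cell formation, changed by 2.22.

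Muscle genes differed widely between the d21 mice. Of 43 adult muscle contraction genes 13 fell (30.2%, against 21.8% of all genes) and 0 rose (against 23.5% of all genes). The median was -1.42, and -3.03 without d21 mouse 2. The falls numbered 37 without d21 mouse 2, 7 without d3 mouse 1 and 8 without d21 mouse 3. Ckm, muscle creatine kinase, stood at 3312, 1809 and 2433 CPM on d3 and 71.2, 2770 and 399 CPM on d21 (-1.22 ± 0.83, adjusted p = 0.241), so that d21 mouse 2 lay within the d3 range and mice 1 and 3 below it. Acta1, skeletal actin, stood at 7452, 4038 and 6570 CPM on d3 and 52.8, 2706 and 559 CPM on d21 (-2.44 ± 0.85, adjusted p = 0.0267), and its call was lost without d3 mouse 1, d3 mouse 3 or d21 mouse 3. Genes of muscle repair also fell. Of 23 muscle regeneration genes 17 fell and 1 rose (median -3.41, and -5.44 without d21 mouse 2). Myog, myogenin, stood at 30.3, 16.1 and 14.1 CPM on d3 and 0.0578, 0.412 and 0.052 CPM on d21 (-6.83 ± 1.08, adjusted p = 8.64e-05), the largest fall of genes with at least 10 CPM on d3 and no overlap, and Myod1, the other myogenic factor among the 12 largest falls of such genes, at 22.9, 12 and 13.1 CPM on d3 and 0.0578, 0.412 and 0.52 CPM on d21 (-5.55 ± 0.78, adjusted p = 2.78e-05). Myh3, embryonic myosin, stood at 31.2, 23 and 15.6 CPM on d3 and 0, 0.53 and 0.26 CPM on d21 (-6.43 ± 1.18, adjusted p = 3.13e-04), and Chrna1, a chain of the acetylcholine receptor, at 29.9, 18 and 24 CPM on d3 and 0.462, 1.53 and 0.26 CPM on d21 (-5.01 ± 0.79, adjusted p = 8.30e-05).

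Myogenic factors are known to bind the letters CAGCTG, which read alike on both strands. They stood in the 250 bases before the start of 16 of 31 adult muscle genes with a promoter entry (51.6%). The same held for 6 of 16 muscle regeneration genes (37.5%) and 7 of 24 pro-B and pre-B cell genes (29.2%). Among tested genes the share was 15%, and among erythroid genes 12.5%. The stretches before Chrna1 (chr2:73580339-73580588, minus strand) and Des (chr1:75360042-75360291, plus strand; desmin, -3.41, adjusted p = 0.0019) are shown as named genes of the regeneration list that hold a match, again with matches in capitals.
Chrna1: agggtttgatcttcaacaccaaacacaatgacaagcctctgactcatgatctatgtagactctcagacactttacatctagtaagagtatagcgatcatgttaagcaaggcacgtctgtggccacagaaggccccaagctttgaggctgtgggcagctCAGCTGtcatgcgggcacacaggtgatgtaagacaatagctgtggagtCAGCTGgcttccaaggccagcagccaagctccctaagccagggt
Des: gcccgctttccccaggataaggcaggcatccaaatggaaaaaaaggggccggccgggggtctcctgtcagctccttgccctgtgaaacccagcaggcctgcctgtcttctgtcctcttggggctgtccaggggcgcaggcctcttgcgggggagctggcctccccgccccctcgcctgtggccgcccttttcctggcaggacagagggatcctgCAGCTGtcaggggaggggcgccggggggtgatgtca
Chrna1 held 2 matches and Des 1, the nearest of which began 44 and 36 bases before the start.

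**Figure D3:**
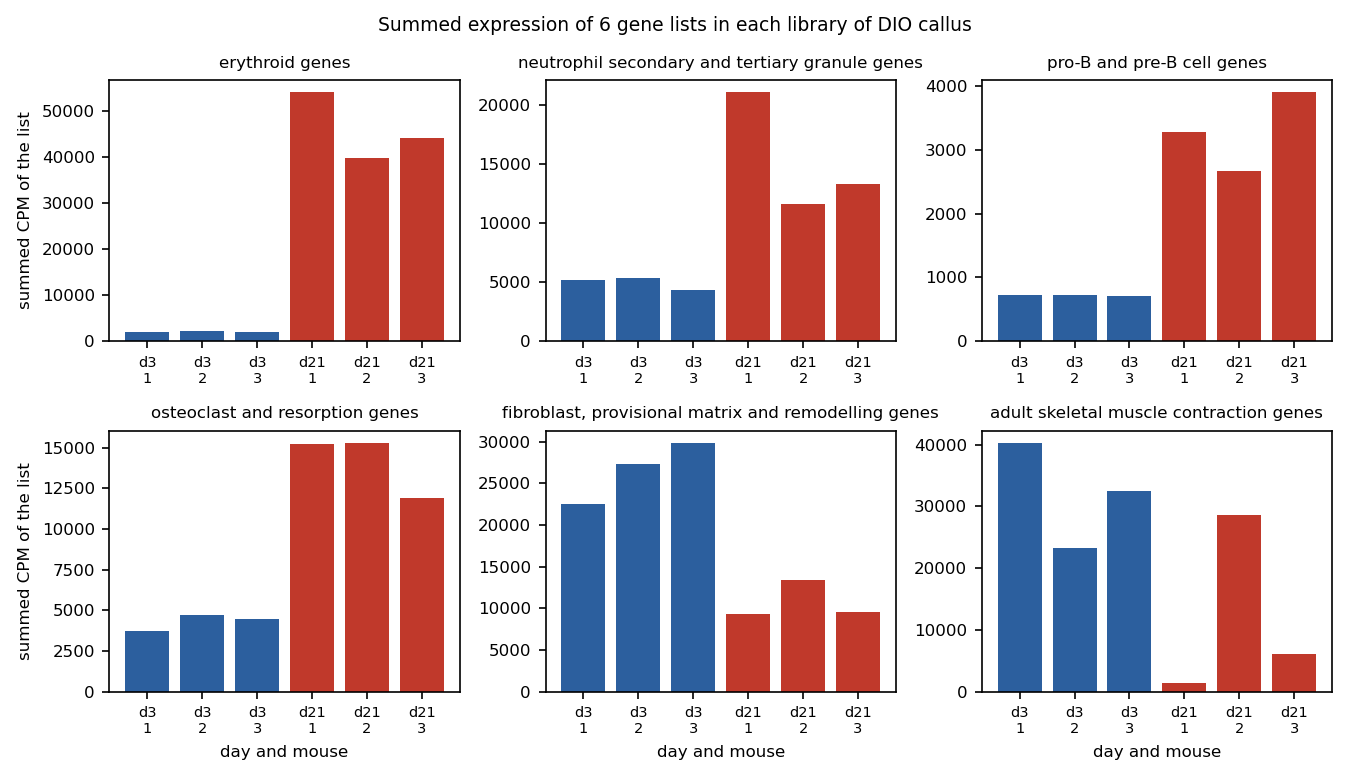
Summed expression (CPM, bars from 0) of 6 gene lists in each of the 3 d3 libraries (blue) and the 3 d21 libraries (red) of DIO callus. Erythroid genes summed to 2062, 2128 and 2042 CPM on d3 and 54040, 39760 and 44210 CPM on d21, while muscle genes on d21 ran from 1428 CPM in mouse 1 to 28570 CPM in mouse 2.

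Other tissues that a callus sample can carry were low or mixed. Of 23 Schwann cell and myelin genes 13 fell and 3 rose (median -1.27). Gfap, a glial filament, was among those that rose and stood at 0.543, 0.906 and 0.365 CPM on d3 and 18.9, 18.7 and 21.8 CPM on d21 (4.97 ± 0.59, adjusted p = 5.76e-06). Of 26 skin keratinocyte genes only 13 passed the filter, and Krt5 and Krt14, the keratins of the basal layer, did not, with at most 6 counts in any of the 6 libraries. Of the 13, 5 rose (38.5%) and 2 fell (15.4%), against 23.5% and 21.8% of all genes. The rises numbered 3 without d3 mouse 1, d3 mouse 3 or d21 mouse 2.

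Ribosomal and nuclear respiratory chain genes moved little, while most mitochondrially encoded genes had a lower mean on d21. Several of the few calls in these groups were lost without 1 of the mice. Of 73 ribosomal protein genes 5 rose and 1 fell (median 0.18), with 2 rises without d3 mouse 1, 1 without d3 mouse 3 and 0 without d3 mouse 2 or d21 mouse 1. Of 47 nuclear genes of the respiratory chain 3 rose and 2 fell (median 0.03), with 0 rises without d3 mouse 2 or d21 mouse 1, 5 falls without d21 mouse 2 and 1 fall without d3 mouse 1, d21 mouse 1 or d21 mouse 3. Of 13 genes of the mitochondrial genome 2 fell and 0 rose (median -0.56), and 12 had a negative change. The falls numbered 0 without d3 mouse 1, d3 mouse 3 or d21 mouse 3, and 1 without d21 mouse 1. Their summed expression was 31420, 17230 and 23710 CPM on d3 and 14760, 16710 and 14860 CPM on d21.

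The days between show when the lists moved. Mean log2 CPM over each list was taken in every mouse, and the comparisons of d5, d7, d10 and d14 with d3 share the 3 d3 mice with each other and with d21. Against d3, 1.68% of all genes passed on d5, 7.3% on d7, 21.8% on d10 and 26.3% on d14, beside the 45.3% on d21. The erythroid mean was 3.45 on d3, 2.61 on d5, 4.59 on d7, 5.02 on d10, 5.92 on d14 and 7.99 on d21. The highest d7 mouse was mouse 3, at 6.16, while mice 1 and 2 stood at 4.14 and 3.47. The pro-B and pre-B mean stood at 2.09, 2.19 and 2.4 on d3, d5 and d7, then at 3.52, 4.64 and 5.6. Igll1 averaged 0.36 CPM on d7, 7.33 on d10, 22.4 on d14 and 75.4 on d21. Both lists thus had their highest mean on the last day. T and NK cell genes had means of 1.96 on d14 and 2.04 on d21, and marrow stroma genes of 6.33 and 6.27.

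Other lists passed a peak that the comparison of d21 with d3 does not show. The cartilage mean was 3.71 on d3, 7.62 on d7 and 3.16 on d21, and Col2a1 averaged 197 CPM on d3, 19550 CPM on d7 and 228 CPM on d21. Against d3, Col2a1 changed by 6.63 on d7 (adjusted p = 4.11e-04) and by 0.21 on d21 (adjusted p = 0.845). The osteoblast mean was highest on d10, at 8.1, between 6.49 on d3 and 7.09 on d21, and the osteoclast mean was 7.06 on d10 and 6.66 on d21. Acp5 averaged 5920 CPM on d10 and 5815 CPM on d14, above its 3668 CPM on d21. The muscle regeneration mean was 4.31 on d3, 6.22 on d5 and 0.85 on d21, and Myh3 averaged 23.2, 369 and 0.264 CPM on these days. Cell cycle genes had a lower mean on d10 (4.86) than on d3 (5.77) or d21 (6.78). Neither the turn between neighbouring days nor the peak itself was tested here.

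**Figure D4:**
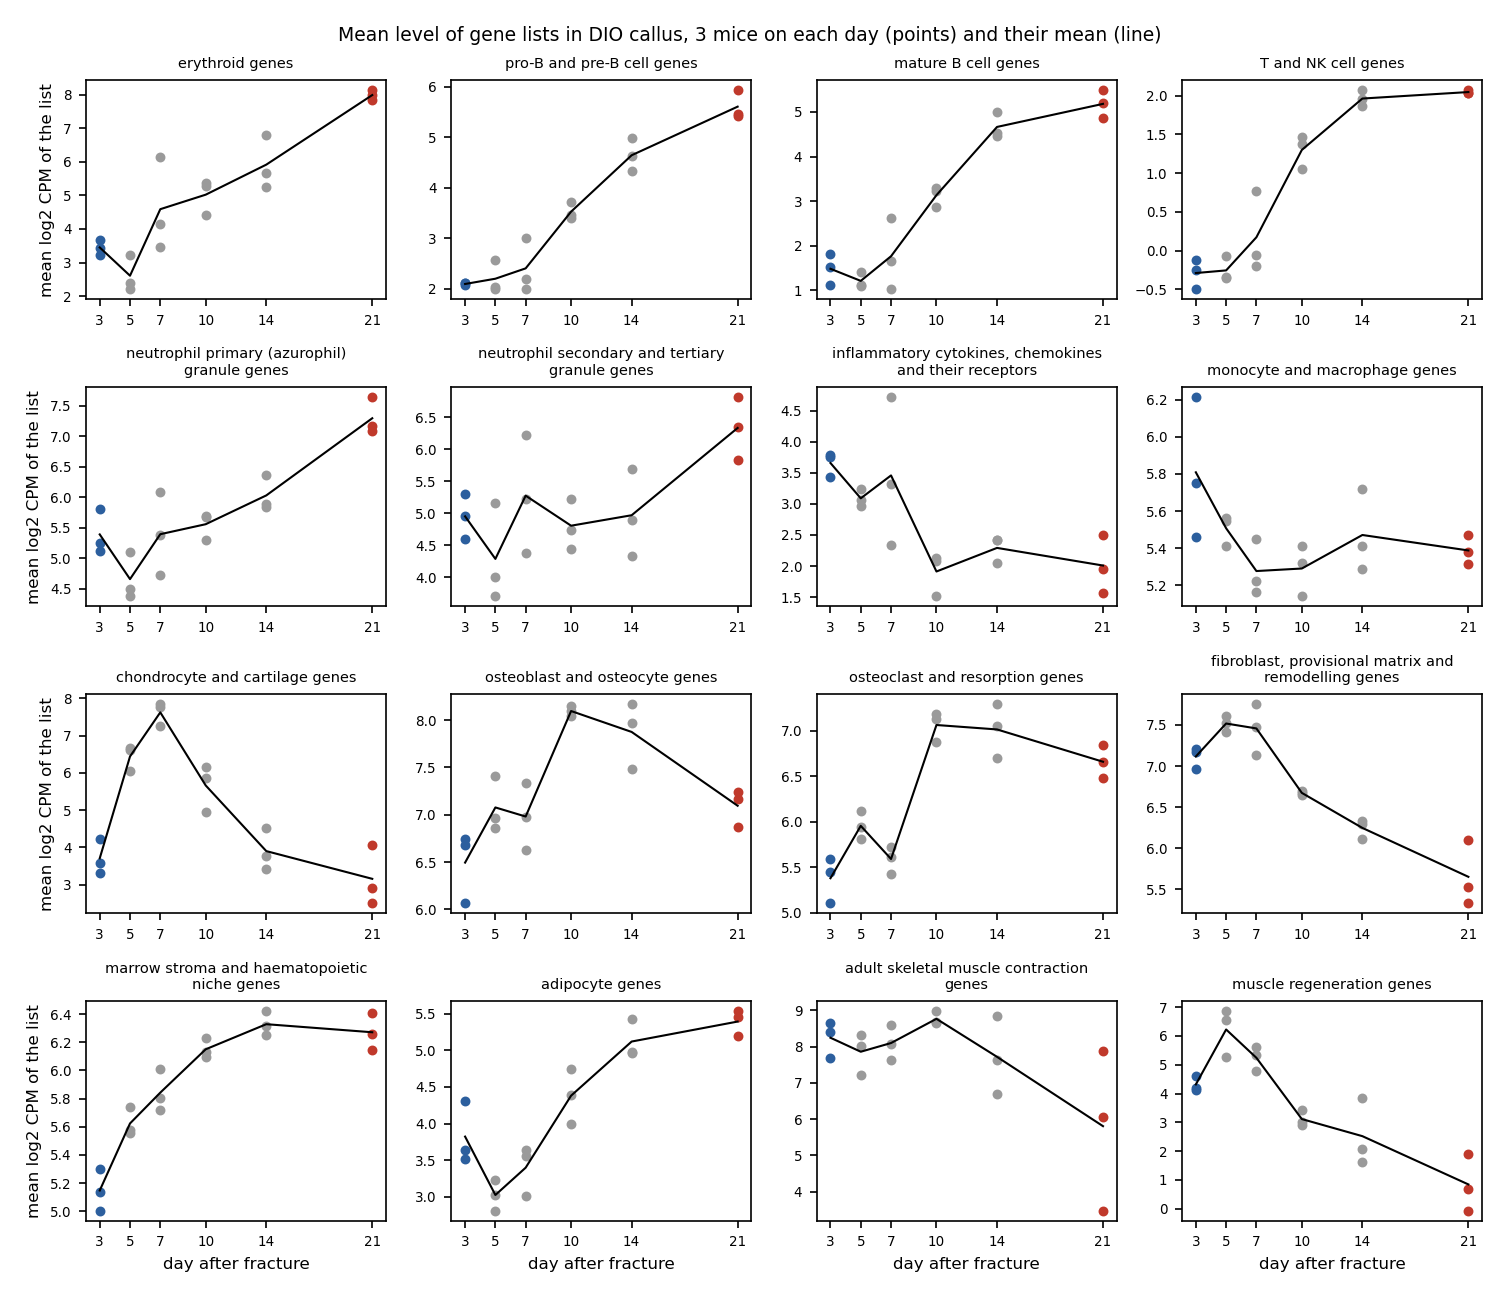
Mean log2 CPM of 16 gene lists (y axis) against the day after fracture (x axis) in DIO callus, with 1 point per mouse (d3 blue, d21 red, other days grey) and a line through the mean of 3 mice. Erythroid and B cell lists were highest on d21, the cartilage list on d7, at a mean of 7.62, and the muscle regeneration list on d5, at 6.22.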

How the data were processed

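The authors trimmed the reads with BBDuk, aligned them to GRCm38 with HISAT2 2.1.0 and ran HTSeq on the alignments. They deposited its raw counts per gene. For HTSeq, the version, annotation and strand setting are not given in the sources used here. The table holds 43629 genes, of which 42548 were matched by Ensembl identifier to GENCODE M21. The 18 DIO libraries (13247122 to 22743115 counts) were fitted together in edgeR 4.0.16 (R 4.3.3) with TMM factors and the filterByExpr defaults, without covariates, and d21 was set against d3 with the two-sided quasi-likelihood test and Benjamini-Hochberg adjustment. The authors' own tests used DESeq2 and, for the time course of lean against DIO mice, maSigPro on TMM-normalized counts.

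The comparison, the gene lists and the rule for naming genes were chosen with earlier results of these data known. Named are the 12 largest rises and falls past the threshold without overlap and with at least 10 CPM on the higher day, key genes of 31 lists, per list the 3 smallest adjusted p and the 3 largest changes with at least 5 CPM, and genes the study discusses. That gave 252 genes, of which 15 overlap another gene on the same strand, 50 one on the opposite strand and 46 have a near-identical stretch (at least 100 bases at 95% identity, BLAST 2.17.0) elsewhere. Some of them are not reported here. A gene was taken as detected at 3 counts. Low counts carry counting error, and the spread between 3 mice limits the rest. Promoter sequences are from RefSeq (GRCm38.p6).

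On simulated counts for d21 against d3 over 16995 genes, edgeR found 35 of 100 genes changed 2-fold and 82 of 100 changed 4-fold, with 6 false calls. Only 200 genes were changed there, on d21 alone, while 45.3% of genes were called in the real comparison. The adjusted p depends on that share, so these rates do not carry over to the real comparison. Chi-square per degree of freedom between mice of a day was 16.9 to 97.7, so no library was a copy of another. Each library is a separate mouse. Alternatives were RLE and upper-quartile factors, TMM without haemoglobin and muscle genes, DESeq2 1.42.0, no filter but 1 count, only the 6 libraries, all 30 libraries, a 1.5-fold threshold, the replicate number as a block and each mouse left out in turn. Python 3.11.15 and pandas 2.3.3 were used for the lists.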

Additional observations from a re-analysis of the deposited data

How the results depend on the processing

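When a change of over 1.5-fold was tested for DIO d21 against d3, 3802 genes passed in place of 7698, of which 2039 rose and 1763 fell; fewer genes can pass such a test by its construction. Without each mouse in turn, 3094 to 3932 genes rose and 2978 to 3989 fell. The other 8 settings kept both counts within 1.5 times. Under another scaling, filter or tool, 3583 to 4083 genes rose and 3657 to 4120 fell. With the 6 libraries alone, 3518 rose and 3375 fell, and with all 30 libraries in the fit 4044 rose and 3816 fell. Deviations from the day mean in same-numbered mice of d3 and d21 had correlations of -0.137, -0.199 and -0.0361. Those of differently numbered mice averaged 0.0623. With 3 mice a day these values are tied to each other, and they show no positive pairing by number. With the replicate block, 3832 genes rose and 3634 fell, and Cxcl2 stood at -0.78 and Pecam1 at -0.38, neither past the threshold.

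7 genes named here changed sign when a mouse was left out, and none of them was past the threshold with all mice. Cxcl2 ran from -2.58 to 0.89 on the log2 scale and Col2a1 from -1.24 to 1.31. Ifit1 ran from -0.20 to 0.79, Itga2b from -0.14 to 0.63, Cd68 from -0.41 to 0.066, Runx2 from -0.34 to 0.061 and Tnc from -0.29 to 0.13. The causes were not tested. Of the list counts, muscle genes lower went from 13 to 20 with no filter and to 8 with the 6 libraries alone. Cartilage genes lower went from 18 to 11 with all 30 libraries. With 3 mice a day and the wide spread at d21, small changes could miss the threshold.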

Other observations

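Several named genes not described above also changed. Rtl3, a retrotransposon-derived gene on none of the lists, stood at 12.7, 19.2 and 9.11 CPM on d3 and 0.347, 1.12 and 0.208 CPM on d21 (-4.63 ± 0.51, adjusted p = 3.35e-06), and averaged 152 CPM on d7, its highest day. Mest, an imprinted gene on the muscle regeneration list, stood at 142, 219 and 161 CPM on d3 and 10.6, 30.4 and 20.1 CPM on d21 (-3.09 ± 0.35, adjusted p = 3.58e-06). Of the lipid synthesis genes on the adipocyte list, Scd1, which makes monounsaturated fatty acids, stood at 94.3, 74.8 and 76.4 CPM on d3 and 1006, 936 and 1487 CPM on d21 (3.8 ± 0.34, adjusted p = 5.23e-07), and averaged 194 CPM on d10 and 798 CPM on d14. Pck1, an enzyme of glyceride and glucose synthesis, changed by 4.92. Ly6d, a surface protein of early lymphoid cells on the mature B cell and dendritic cell lists, stood at 1.69, 0.906 and 0.972 CPM on d3 and 93.6, 42.9 and 78.6 CPM on d21 (5.93 ± 0.72, adjusted p = 7.65e-06).

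Within the Schwann cell list the genes did not move together. Mbp, myelin basic protein, stood at 35, 26 and 21.3 CPM on d3 and 51.1, 55.9 and 52.2 CPM on d21 (0.95 ± 0.27, adjusted p = 0.00835), a call lost without d3 mouse 3, and Cnp, another myelin enzyme, at 45.7, 43.8 and 43 CPM on d3 and 81.5, 87.3 and 119.7 CPM on d21 (1.12 ± 0.18, adjusted p = 7.49e-05), while Dhh, a Schwann cell signal, and Sox10, the factor of the lineage, fell by 3.69 and 2.62 on the log2 scale. Epcam, an adhesion molecule on the keratinocyte list, rose from 0.362, 0.7 and 0.79 to 3.93, 4.24 and 4.89 CPM (2.79 ± 0.33, adjusted p = 6.17e-06), whereas Trp63, the factor of basal keratinocytes, changed by -1.93. Other cell types use Mbp, Cnp, Gfap and Epcam, and which cells carried them was not tested.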
